A study of Mus musculus with 20 samples.

Results

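The genes described here are 38 genes of the type I interferon response, chosen as a list by name and read through the probe sets that the platform annotation assigns to them. Of the 38 genes, 37 had a probe set of their own, and all 37 passed the filter for testing, a log2 value above 5 in at least 2 arrays. Ifi44 was matched by none and is not analysed here. The array gave a probe set to 18193 genes in all, of which 9810 passed the same filter. Stat2 lay just inside the filter, with 5.17 in the second B cell array, 5.04 in the second granulocyte array and values below 5 in all others, and no member lay outside it.

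The study profiled stem cells of the blood and the cells that descend from them on Affymetrix Mouse430_2 arrays, with 2 arrays for each of 10 sorted cell types. The types are LT-HSC (long-term hematopoietic stem cells), B cells, NK (natural killer) cells, T cells in 4 groups (CD4 or CD8, naive or activated), monocytes, granulocytes and nucleated erythrocytes, which are red cell precursors that still hold a nucleus. All cells came from wild-type female C57Bl/6 mice (CD45.1 in the series text) aged 12 to 14 weeks, and each array held 4 pooled samples of 25000 to 50000 sorted cells, whose RNA was amplified in 2 rounds. The labels give lipopolysaccharide (LPS) as the treatment of both activated groups, with no dose or time, and no agent for any other group. No interferon treatment is named, so the levels below are those of cells as they were sorted. The spread behind each p-value is that between pools of cells rather than between mice, and in bulk samples fewer cells that hold an RNA and less RNA per cell cannot be told apart.

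Type I interferons bind the receptor made of Ifnar1 and Ifnar2, whose kinases Jak1 and Tyk2 activate Stat2. A complex that holds Stat2 and Irf9 binds the interferon-stimulated response element (ISRE) in promoters. Another element of interferon-responsive promoters is the gamma-activated sequence (GAS). The genes switched on in this way encode sensors of viral nucleic acid, enzymes that degrade or modify viral RNA, proteins that block entry or budding, and regulators that strengthen or end the response. Many keep a low level without infection, in blood cells as elsewhere.

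Promoter windows were at hand for 29 of the 38 members, from a RefSeq table of build GRCm38.p6 that reaches from 250 bases before to 50 bases after each annotated start. The windows were searched on both strands for the letters of the ISRE core, GAAANNGAA, and for those of the GAS core, TTCNNNGAA, which reads the same on either strand. At least 1 ISRE core was found in 17 of the 29 members (58.6%), against 8.84% of 8012 genes tested and 9.76% of all 27025 genes with a window. The GAS core was found in 7 of the 29 (24.1%), against 8.23% and 9.55%, and 2 of these 7 matches overlapped an ISRE core. A match is a description of the letters, not a binding site. The following 3 stretches of 125 bases before the start are shown because Ifit1 and Rsad2 were lower in activated than in naive CD4 T cells, while Gbp2 was higher. Capitals mark the ISRE core, which in all 3 reads on the strand opposite to the gene.
Ifit1 (chr19:34640764-34640888, plus strand): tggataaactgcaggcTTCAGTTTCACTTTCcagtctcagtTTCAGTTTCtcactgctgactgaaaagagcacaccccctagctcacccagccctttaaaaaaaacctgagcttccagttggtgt
Rsad2 (chr12:26456453-26456577, minus strand): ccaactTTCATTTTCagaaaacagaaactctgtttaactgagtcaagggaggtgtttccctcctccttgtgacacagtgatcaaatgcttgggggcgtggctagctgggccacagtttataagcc
Gbp2 (chr3:142620538-142620662, plus strand): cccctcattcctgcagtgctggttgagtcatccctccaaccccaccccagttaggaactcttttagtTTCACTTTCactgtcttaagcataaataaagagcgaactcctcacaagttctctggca
Ifit1 held 3 matches, a pair that shares bases and a single one nearer the start, and Rsad2 and Gbp2 held 1 each. The same letters thus stood before genes that moved in opposite directions on activation. Of the 29 ISRE matches in member windows, 10 lay wholly within 100 bases before the start. Members whose windows held no ISRE core were Cmpk2, Dtx3l, Herc6, Ifi209, Ifi35, Ifit2, Irf7, Irf9, Isg20, Oasl1, Oasl2 and Xaf1. For Cmpk2, Ifit2, Irf7, Isg20, Oasl1, Oasl2 and Xaf1 no window was set at the RefSeq start of the gene, so a core there could be missed. The same held for Gbp3, Ifi213, Ifit3, Oas1a and Oas3, whose windows did hold a core. Windows of Dhx58, Ifi27l2a, Mx1, Oas2, Parp14, Parp9, Rtp4, Usp18 and Zbp1 were not used here.

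**Figure D1:**
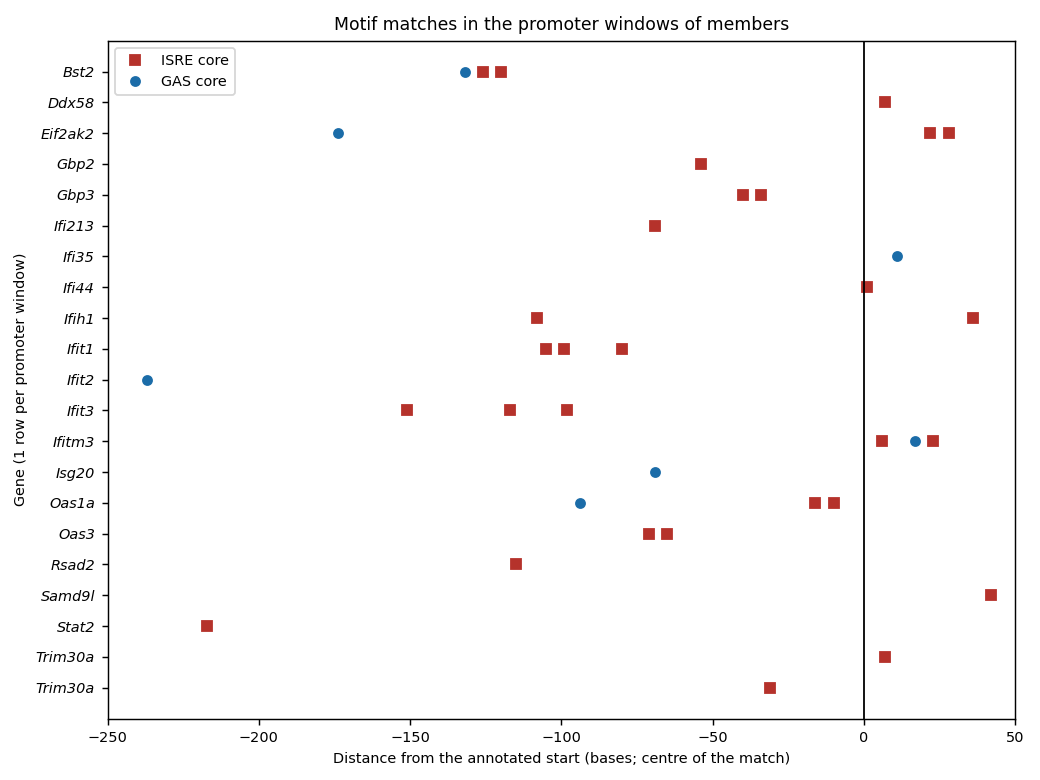
Distance in bases from the annotated start (horizontal axis, 0 is the start) of the centre of each ISRE core (squares) and GAS core (circles) in the promoter windows of members, with 1 row per window that holds a match and 2 rows for Trim30a. The 17 members with an ISRE core include Ifit1 and Ifit3 with 3 matches each.

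The 2 arrays of a type correlated at 0.945 to 0.988 over the 9810 genes, which are not independent replicates. Markers of the labelled type stood above log2 5 in both arrays for most lists. The exceptions were Cd4, at 3.68 to 4.35 in both CD4 groups and at similar values in every other type, and the B cell factor Pax5, not above 5 in B cells. In monocytes Ccr2 (5.11 and 6.07) and Cx3cr1 (5.15 and 5.57) passed narrowly, at values close to those of most other types. Ccr2 was highest in NK cells (9.37 and 9.63). In the CD4 groups Cd3e and its partners were present, Cd8b1 read 3.01 to 4.17, and Cd8a read 4.58 and 5.43 in naive and 5.26 and 5.63 in activated arrays, against 12.42 to 13.44 in the CD8 groups. For the first naive CD8 array the title says CD48+ and the source name CD8+, and Cd8a read 13.44 there. Eif2s3y, a Y-linked gene, read 10.73 to 12.84 in all 4 activated arrays and in the first array of each naive group, and at most 3.45 elsewhere, although the labels give female mice throughout.

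The members were highest as a group in monocytes, where their median level was 10.30, followed by granulocytes at 9.54, naive CD8 T cells at 9.29 and naive CD4 T cells at 9.13. The lowest median levels were 6.60 in activated CD4 T cells, 6.79 in LT-HSC and 6.94 in activated CD8 T cells. B cells (8.67), NK cells (8.05) and nucleated erythrocytes (8.87) lay between. The median of all genes tested ran the other way in monocytes, with 7.20 the lowest of the 10 types, whose medians reached 8.27. Monocytes held the highest level of 13 of the 37 members, B cells and nucleated erythrocytes of 6 each, and naive CD8 T cells of 5. LT-HSC held the lowest level of 13 members and activated CD4 T cells of 8. The shares of all genes with their highest or lowest level in each type are not given here, so these counts are a description. In a limma F test across the 10 types, 36 of the 37 members differed (Benjamini-Hochberg adjusted p under 0.05), in a table where 94.3% of all genes did. Stat2 was the exception (adjusted p = 0.539), and its 2 arrays above 5 were single arrays of B cells and granulocytes.

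**Figure D2:**
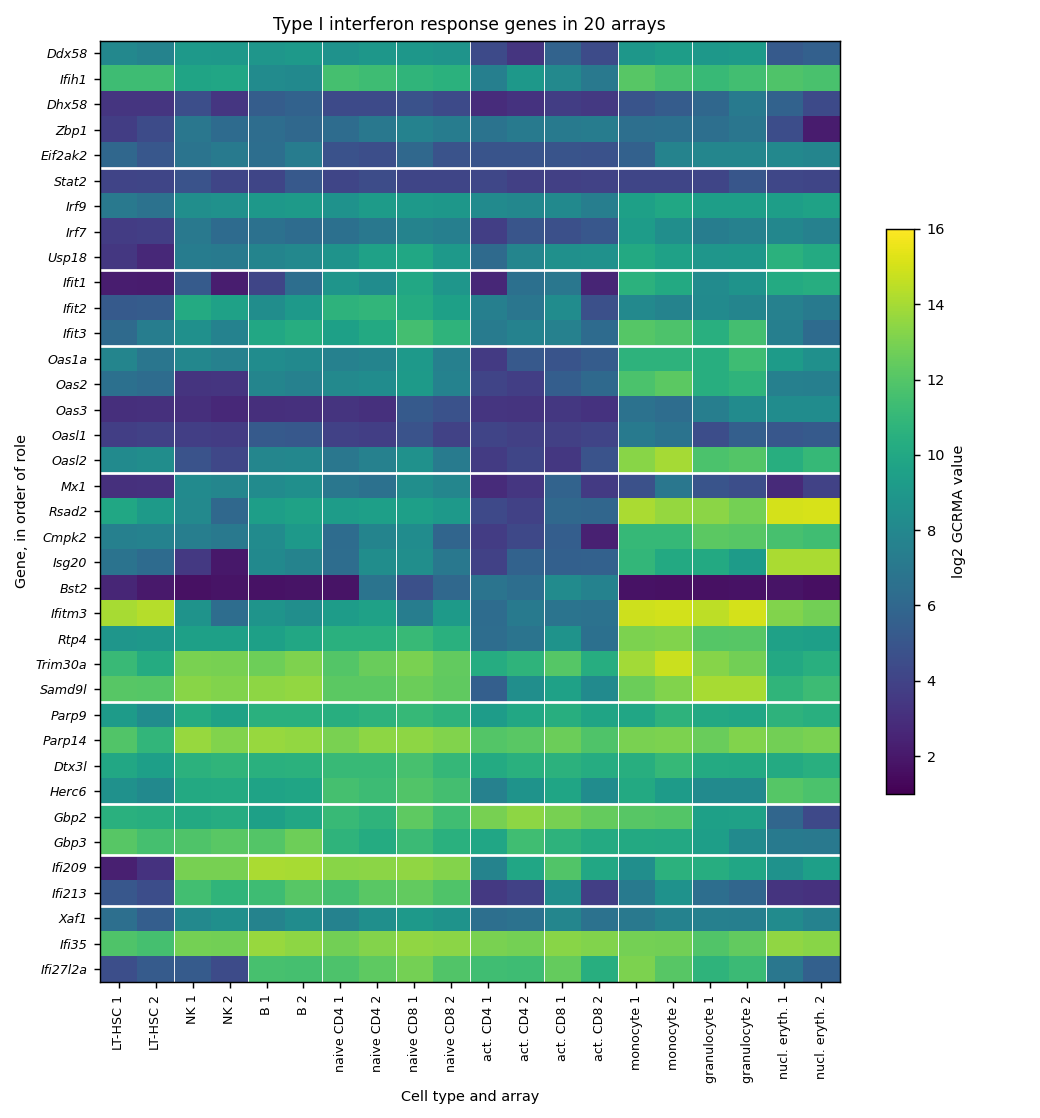
Heat map of the log2 GCRMA value (colour scale) of the 37 members (rows, in order of role, white lines between role groups) in each of the 20 arrays (columns, 2 per cell type). The members' median was 10.30 in monocytes and 6.60 in activated CD4 T cells, and single genes such as Bst2, Ifi209 and Gbp2 depart from the order of the others.

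Among the sensors of viral nucleic acid, Ddx58 encodes RIG-I, which binds RNA ends. Ddx58 read 8.96 and 9.35 in monocytes, 8.99 and 9.16 in granulocytes, 9.11 and 9.02 in NK cells and 8.91 and 9.07 in B cells, with a mean of 7.84 ± 0.23 (SD, n = 2) in LT-HSC. It read 8.67 and 8.95 in naive CD4 T cells and 8.94 and 8.79 in naive CD8 T cells, against 4.35 and 3.31 in activated CD4, 5.76 and 4.44 in activated CD8 T cells and 5.24 and 5.59 in nucleated erythrocytes. The 3 last groups lay below every array of the other 7. Ifih1, which encodes MDA5, a sensor of long double-stranded RNA, had another order. It read 12.11 and 11.63 in monocytes, 11.87 and 11.67 in nucleated erythrocytes, 11.10 and 11.45 in granulocytes, 11.36 and 11.32 in LT-HSC and 11.55 and 11.35 in naive CD4 T cells. It was lower in naive CD8 T cells (10.82 and 10.59), NK cells (9.74 and 9.87), B cells (8.23 and 8.12), activated CD4 (7.46 and 8.98) and activated CD8 T cells (8.08 and 7.07). LT-HSC, low in most members, thus stood among the high types for Ifih1. Dhx58, the regulator LGP2 of the same receptor family, exceeded 5 in only 6 arrays and was highest in granulocytes at 6.58. Zbp1, a sensor of Z-form nucleic acid that can start cell death, had its lowest mean in nucleated erythrocytes (3.33, arrays 4.55 and 2.12). Eif2ak2, the kinase PKR that halts translation, lay between 4.70 in naive CD4 T cells and 7.91 in nucleated erythrocytes, and a second probe set of it followed this order weakly (r = 0.42 over the 10 type means).

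Among the signalling members, Irf7 is the factor that amplifies interferon production. Irf7 read 9.29 and 8.44 in monocytes, 7.96 and 7.57 in nucleated erythrocytes, 7.73 and 7.49 in naive CD8 T cells and 7.38 and 7.61 in granulocytes. It read 6.53 and 6.98 in naive CD4 T cells, 7.05 and 6.26 in NK cells and 6.59 and 6.31 in B cells. It was near background in activated CD8 (4.67 and 5.07) and activated CD4 T cells (3.80 and 4.94) and in LT-HSC (3.69 and 3.77). Both monocyte arrays lay above every other array. Arrays of nucleated erythrocytes, naive CD8 T cells and granulocytes overlapped one another, so their order is within the spread. Irf9, the DNA-binding partner of Stat2, spanned a smaller range, from 7.08 and 6.67 in LT-HSC to 9.53 and 9.94 in monocytes. Usp18, which removes Isg15 from proteins and dampens the receptor, read 3.42 and 2.75 in LT-HSC. Its other arrays ran from 6.21 and 7.80 in activated CD4 T cells to 10.09 and 9.57 in monocytes and 10.59 and 10.19 in nucleated erythrocytes. LT-HSC alone lay below 5 for Usp18. Over the 10 type means, the members most like Irf7 were Irf9 (Pearson r = 0.94), Ifit1 (0.87) and Rtp4 (0.83), and the least like it were Gbp2 (-0.34), Gbp3 (-0.44) and Bst2 (-0.48). Outside the list the highest were Dop1b (0.965), Upf2 (0.955), Lce3c (0.955), Pip4k2a (0.954) and Fbxo38 (0.936), a description over 10 points that share their arrays. Most like the members' median level were Plbd1 (0.955), Upf2 (0.952), Mpeg1 (0.947), Pip4k2a (0.931) and Tsc22d4 (0.931).

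The Ifit proteins bind viral RNA and hold back its translation. Ifit1 read 10.63 and 10.09 in monocytes, 10.18 and 10.33 in nucleated erythrocytes, 9.98 and 8.89 in naive CD8 T cells, 8.81 and 8.32 in naive CD4 T cells and 8.25 and 8.69 in granulocytes. It read 2.19 and 2.17 in LT-HSC, 5.30 and 2.18 in NK cells and 4.12 and 6.41 in B cells. Its arrays disagreed most in activated cells, with 2.66 and 6.53 in activated CD4 and 6.97 and 2.55 in activated CD8 T cells. Ifit2 followed another order and was highest in naive CD4 T cells (10.69 and 10.89), naive CD8 T cells (10.20 and 9.54) and NK cells (10.16 and 9.60). Ifit2 read 8.35 and 9.04 in B cells, 8.06 and 7.72 in monocytes, 8.16 and 7.82 in granulocytes, 7.62 and 7.18 in nucleated erythrocytes, 7.50 and 6.89 in activated CD4, 8.31 and 4.66 in activated CD8 T cells and 5.25 and 5.36 in LT-HSC. Naive T cells and NK cells, not the myeloid types, held its top 6 arrays. Ifit3 peaked in monocytes (mean 11.93), and unlike Ifit1 it was low in nucleated erythrocytes (mean 6.88).

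The Oas enzymes make a second messenger from double-stranded RNA that switches on an RNA-degrading enzyme. Oasl2, a related protein of this family, read 13.33 and 13.99 in monocytes, 11.78 and 11.96 in granulocytes and 10.39 and 11.03 in nucleated erythrocytes. It read 8.19 and 8.35 in LT-HSC, 7.87 and 7.93 in B cells, 6.92 and 7.62 in naive CD4 T cells and 8.59 and 7.24 in naive CD8 T cells. NK cells (4.81 and 4.22), activated CD4 (3.63 and 4.11) and activated CD8 T cells (3.41 and 4.85) stood below 5 in every array. Oas2 kept monocytes (11.73 and 12.20) and granulocytes (10.43 and 10.75) on top, and NK cells (3.24 and 3.29), activated CD4 (4.09 and 3.77) and activated CD8 T cells (5.49 and 6.15) at the bottom. Its remaining arrays were 7.55 and 7.47 in nucleated erythrocytes, 6.51 and 6.33 in LT-HSC, 7.81 and 7.61 in B cells, 8.05 and 8.27 in naive CD4 T cells and 9.16 and 7.67 in naive CD8 T cells. Oas1a peaked in granulocytes (10.87) and monocytes (10.71). Oas3 exceeded 5 in 7 arrays, those of monocytes, granulocytes and nucleated erythrocytes and the first naive CD8 array. Oasl1 also exceeded 5 in 7 arrays and was highest in monocytes at 6.96.

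Among the 9 antiviral effectors, Rsad2 and Isg20 had their highest levels in nucleated erythrocytes. Rsad2 encodes viperin, which makes a nucleotide that stops viral RNA synthesis, and Isg20 an exonuclease that degrades RNA. Rsad2 read 15.01 and 15.10 in nucleated erythrocytes, 14.11 and 13.64 in monocytes and 13.37 and 12.86 in granulocytes. It read 9.93 and 9.17 in LT-HSC, 9.39 and 9.62 in B cells, 9.30 and 9.49 in naive CD4 T cells, 9.44 and 9.14 in naive CD8 T cells and 8.06 and 6.09 in NK cells, and 4.33 and 3.91 in activated CD4 and 6.07 and 5.95 in activated CD8 T cells. The 3 first types did not overlap with any other type. Isg20 read 14.08 in each nucleated erythrocyte array, 10.93 and 10.12 in monocytes, 10.10 and 9.21 in granulocytes, 8.14 and 7.71 in B cells, 6.35 and 8.33 in naive CD4 T cells and 7.71 ± 1.00 (mean and SD, n = 2) in naive CD8 T cells. It read 6.71 and 6.25 in LT-HSC, 5.62 and 5.65 in activated CD8, 3.88 and 5.70 in activated CD4 T cells and 3.47 and 1.95 in NK cells. No array of another type came within 2-fold of the erythrocyte level of Isg20.

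Other effectors had patterns of their own. Ifitm3, which blocks the fusion of virus with the cell, was at 14.83 and 14.97 in monocytes, 14.48 and 15.04 in granulocytes, 14.04 and 14.31 in LT-HSC and 13.18 and 12.80 in nucleated erythrocytes. In the lymphoid types it read 9.27 and 9.57 in naive CD4 T cells, 7.38 and 9.19 in naive CD8 T cells, 8.79 and 8.42 in B cells, 8.73 and 6.36 in NK cells, 6.30 and 7.20 in activated CD4 and 6.77 and 6.65 in activated CD8 T cells. The lymphoid arrays and the others did not overlap. Bst2, which encodes tetherin and holds budding virus at the cell surface, exceeded 5 in 6 arrays, all of T cells. It read 6.77 and 6.43 in activated CD4, 8.23 and 7.67 in activated CD8, 4.69 and 6.04 in naive CD8 and 1.80 and 6.78 in naive CD4 T cells, and at most 2.61 in every other array. The naive CD4 arrays of Bst2 differed by more than any other pair of arrays of a member (SD 3.52, n = 2). Mx1, a GTPase that traps viral particles, was highest in B cells (8.36), naive CD8 T cells (8.17) and NK cells (8.05). Samd9l peaked in granulocytes (14.04) and B cells (13.49), Trim30a and Rtp4 in monocytes (14.37 and 13.11), and Cmpk2, a nucleotide kinase encoded next to Rsad2, in granulocytes (12.14).

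**Figure D3:**
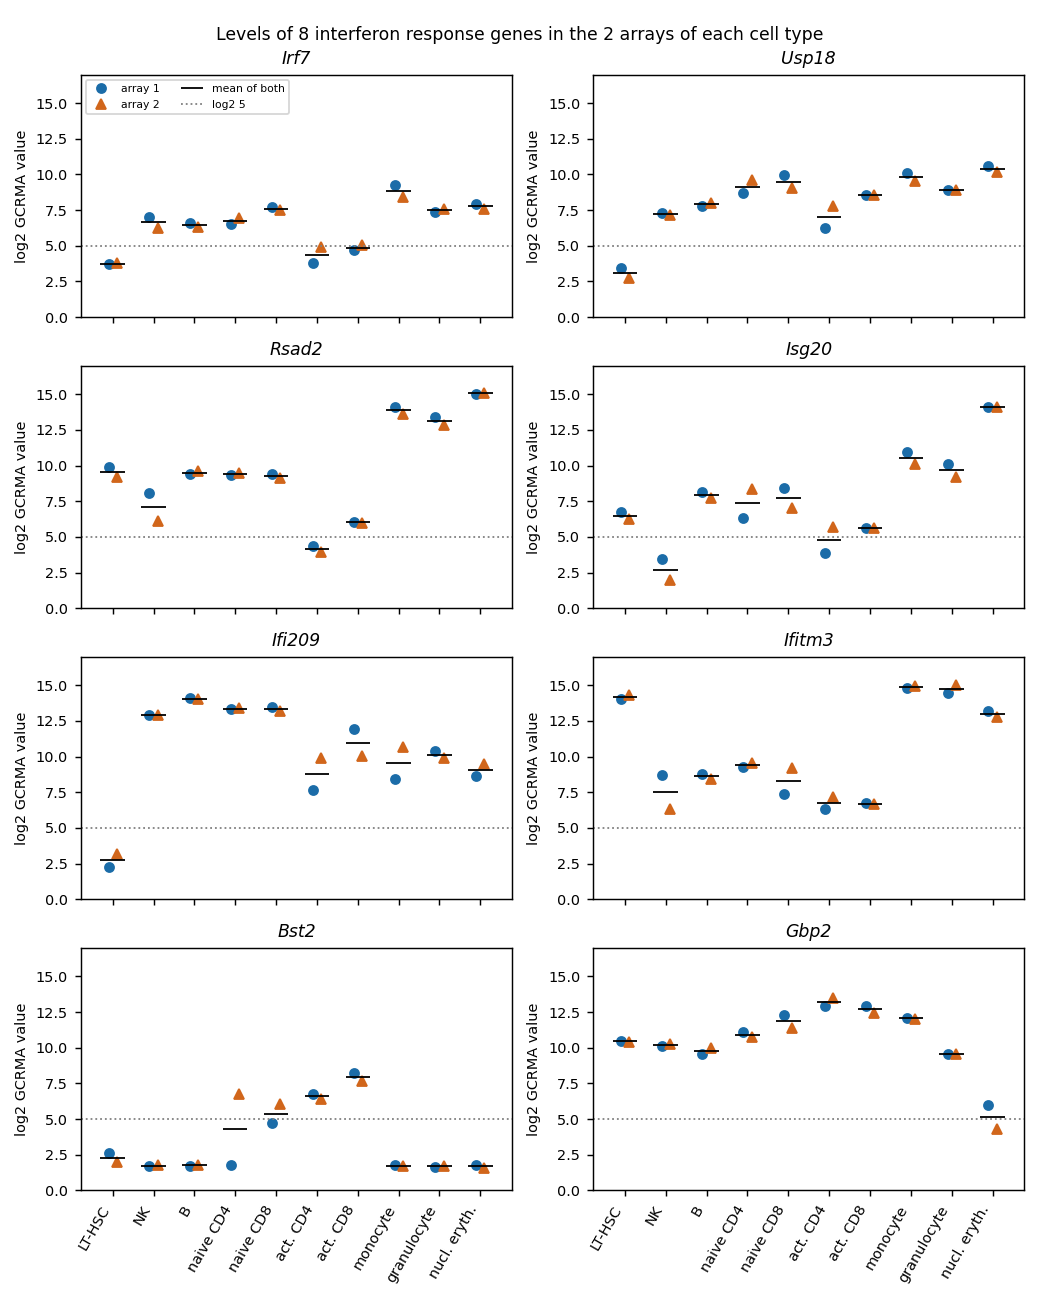
Log2 GCRMA value (vertical axis) of 8 members in the 10 cell types (horizontal axis), with circles for array 1, triangles for array 2, a bar for the mean and a dotted line at log2 5. Isg20 read 14.08 in both arrays of nucleated erythrocytes, Ifi209 was lowest in LT-HSC, and Bst2 exceeded 5 in T cell arrays alone.

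The enzymes of ubiquitin and ADP-ribose transfer spanned at most 3.73 on the log2 scale between their highest and lowest type means. Parp9 and Dtx3l, which act as a complex, spanned 2.10 and 1.56, both with LT-HSC lowest. Parp14, an ADP-ribose transferase, read 13.70 and 13.54 in B cells and 11.94 and 10.87 in LT-HSC. Herc6, the ligase that attaches Isg15 in mice, read 12.02 and 11.73 in nucleated erythrocytes, 11.93 and 11.51 in naive CD8 and 11.56 and 11.28 in naive CD4 T cells. Granulocytes (8.20 in each array), LT-HSC (8.58 and 8.13) and activated CD4 T cells (7.58 and 8.71) were lowest for Herc6, and their arrays overlapped.

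The guanylate-binding proteins Gbp2 and Gbp3, which attack the membranes around pathogens, answer to interferon gamma as well. Gbp2 was highest in activated T cells, at 12.94 and 13.48 in activated CD4 and 12.92 and 12.44 in activated CD8 T cells. It read 12.11 and 12.01 in monocytes, 12.27 and 11.40 in naive CD8, 11.09 and 10.75 in naive CD4 T cells, 10.50 and 10.39 in LT-HSC, 10.14 and 10.28 in NK cells, 9.54 and 9.97 in B cells, 9.53 and 9.56 in granulocytes and 5.95 and 4.30 in nucleated erythrocytes. A second probe set of Gbp2 gave the same order (r = 0.99 over the 10 type means). Gbp3 was highest in B cells (12.01 and 12.68), NK cells (11.88 and 12.19) and LT-HSC (12.13 and 11.58), whose arrays overlapped, and lowest in nucleated erythrocytes (7.18 and 7.06).

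The Ifi200 family genes Ifi209 and Ifi213, neighbours in the RefSeq gene order, encode proteins of the kind that bind DNA in the nucleus and cytoplasm. Ifi209 read 2.29 and 3.19 in LT-HSC, against 14.11 and 14.02 in B cells, 13.32 and 13.39 in naive CD4 T cells, 13.49 and 13.22 in naive CD8 T cells and 12.91 and 12.94 in NK cells. It read 7.68 and 9.88 in activated CD4, 11.92 and 10.02 in activated CD8 T cells, 8.43 and 10.64 in monocytes, 10.37 and 9.88 in granulocytes and 8.66 and 9.45 in nucleated erythrocytes. Resting lymphoid types held the 8 highest arrays. Ifi213 shared this lymphoid top, with 11.52 and 12.15 in naive CD4 T cells, 12.40 and 11.85 in naive CD8 T cells, 11.36 and 12.13 in B cells and 11.44 and 10.82 in NK cells. It read 7.19 and 8.62 in monocytes, 6.43 and 5.96 in granulocytes, 5.09 and 4.55 in LT-HSC, 3.51 and 3.91 in activated CD4, 8.43 and 3.78 in activated CD8 T cells and 3.25 and 3.14 in nucleated erythrocytes. Among the remaining members, Ifi27l2a split the types into those at 10.42 or above and those at 6.96 or below. The lower set held LT-HSC (4.62 and 5.30), NK cells (5.30 and 4.42) and nucleated erythrocytes (6.96 and 5.61). Xaf1, a partner of the apoptosis inhibitor XIAP, ran from 5.97 in LT-HSC to 8.90 in naive CD8 T cells, and Ifi35 from 11.71 in LT-HSC to 13.57 in B cells.

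Activated T cells had lower levels of most members than naive T cells. A call here and below needs a limma Benjamini-Hochberg adjusted p under 0.05 over the 9810 genes and a log2 difference of at least 1, and differences are given ± their standard error (SE), with n = 2 arrays a group. In CD4 T cells 24 of the 37 members were lower and 1 was higher, where 18.2% of all genes were lower and 14.9% higher. The members' median log2 difference was -2.35 and that of all genes 0.02. The sensors Ddx58 (-4.98 ± 0.39, adjusted p = 1.73e-06) and Ifih1 fell, as did all 3 Ifit genes, 3 of 5 Oas genes and 8 of 9 antiviral effectors, among them Rsad2 (-5.28 ± 0.48, adjusted p = 4.62e-06) and Samd9l (-5.26 ± 0.67). Ifi213 (-8.12 ± 1.01), Ifi209 (-4.58 ± 0.78) and Oas2 (-4.23 ± 0.39) fell as well, and for all 6 named members the activated arrays lay below the naive ones. In 9 of the 25 called members, Ddx58, Rsad2, Ifi213 and Oas2 among them, neither activated array exceeded 5, so the size of the fall is uncertain. The call of Dhx58 compares readings that all lay below 5 (4.34 and 4.39 in naive, 2.90 and 3.22 in activated arrays). Gbp2 was the member that rose (2.29 ± 0.44, adjusted p = 0.00119, 4.89-fold). Bst2 (2.31 ± 1.04, adjusted p = 0.1) and Parp9 (-0.89 ± 0.38, adjusted p = 0.0846) did not pass. Without the first activated CD4 array 15 members were called lower, and without the second naive CD4 array 2 were called higher, the added one being Bst2 (4.80). The highest-variance probe set of Rsad2 differed by only -0.21, which ends its call.

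In CD8 T cells 23 of the 37 members were lower and 0 were higher, where 15.7% of all genes were lower and 14.4% higher. By unadjusted limma p under 0.05, 1 member was higher, and the share of all genes at that threshold is not given here. The median log2 difference was -1.67 for the members and -0.02 for all genes. Ifi213 (-6.02 ± 1.01, adjusted p = 5.73e-04), Ifit1 (-4.67 ± 1.41, adjusted p = 0.021), Ifit3 (-4.18 ± 0.57), Oasl2 (-3.79 ± 0.50), Ddx58 (-3.76 ± 0.39) and Samd9l (-3.62 ± 0.67) had the largest falls, by limma and Benjamini-Hochberg. Neither activated array exceeded 5 for Oasl2 and Oas3, and for Oas3 the first naive array alone did. The activated arrays of Ifi213 (8.43 and 3.78) and Ifit1 (6.97 and 2.55) lay far apart but below both naive arrays. Bst2 (2.58 ± 1.04, adjusted p = 0.0726) and Ifitm3 (-1.58 ± 0.65, adjusted p = 0.0819) did not pass. Without the second activated CD8 array 15 members were called lower, and Ifit1 (-2.46) was then not called. Leaving out either naive CD8 array also ended the call of Ifit1 (-4.13 without the first and -5.22 without the second). Bst2 was called without either naive CD4 array (2.59 each), which makes 1 member higher, and Ifitm3 was called without either NK array (-1.58 each) or without the first naive CD8 array (-2.48).

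Arrays of one type lay further apart for members than for genes at large in the activated and naive CD8 groups. The median gap between the 2 arrays was 0.66 for members and 0.28 for all genes in activated CD8, 0.45 and 0.22 in activated CD4 and 0.55 and 0.23 in naive CD8 T cells. Of the 37 members, 16 were at least 2-fold apart between the activated CD8 arrays, 11 between the activated CD4 arrays and 9 between the naive CD8 arrays, against 2 to 6 in every other type. The first activated CD8 array had the higher value in 28 of 37 members, and the first naive CD8 array, which carries the Y-linked signal, in 35. In naive CD4 T cells the first array, which carries that signal as well, was higher in 9 members and the second in 28. The median of all genes tested was higher in the same arrays. In the first and second array it was 8.24 and 8.11 in activated CD8, 8.34 and 8.21 in naive CD8 and 7.95 and 8.16 in naive CD4 T cells. The shares of all genes at least 2-fold apart, or higher in 1 of the arrays, are not given here, so these counts are a description. Both activation comparisons lowered 21 members, a set that held Irf7, the Ifit genes, Mx1, Rsad2, Isg20, Herc6 and Xaf1, against 12.5% of all genes, and they share no arrays with each other. No member was higher in both, against 11.2% of all genes. None was called in opposite directions, and the share of all genes for that is not given here. The difference between the activation effects (CD8 minus CD4) passed for 0 members in either direction, where 0.326% of all genes were higher and 0.336% lower. At an unadjusted limma p under 0.05, 3 members were higher and 3 lower, and the share of all genes at that threshold is not given here. The largest values, Ifi209 (2.19 ± 1.10, adjusted p = 0.858) and Ifi213 (2.11 ± 1.43, adjusted p = 0.999), had standard errors too wide to show that the effects were alike. Leaving out the first naive CD8, the second activated CD4 or the second activated CD8 array gave 1 member higher, which in the last case was Ifi213 (4.43), and leaving out either granulocyte array gave 1 member lower.

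Other measures moved with the activation groups. The array has a control probe set at the 5 prime end of Gapdh, whose signal was 7.42 to 8.81 in the 4 activated arrays and 3.89 to 4.45 in the 4 naive arrays. The part of this signal in the differences was not tested. The Y-linked signal given above was present in all activated arrays and only in the first array of each naive group. With both second naive arrays left out, so that every T cell array carried it, 16 members were lower and 2 higher in CD4, and 20 lower and 1 higher in CD8 T cells. The shares of all genes called in that setting are not given here, so these counts are a description. Markers of plasmacytoid dendritic cells, a strong source of interferon, had mean levels of 6.16 to 7.32 in naive and 4.59 to 5.42 in activated arrays (6 genes). Of these, 3 exceeded 5 in both arrays of each naive group and 2 in both arrays of each activated group, with Cox6a2 not above 5 in any T cell array. The list is not particular to T cell samples, since B cells had mean levels of 6.00 to 6.41, with 4 of the 6 genes above 5 in both arrays. Klk1 of this list ran the other way (6.08 to 7.99 in naive and 9.66 to 10.32 in activated arrays), and Siglech exceeded 5 in the second naive CD4 array alone (6.94). The 4 monocyte markers had mean levels of 4.89 to 5.61 in naive and 3.55 to 4.01 in activated arrays. Among them Csf1r read 7.91 to 10.21 in naive and 2.22 to 4.63 in activated arrays, and Cd14 was not above 5 in any. The macrophage list had mean levels of 4.32 to 5.51 in naive and 3.56 to 3.91 in activated arrays, with C1qa and C1qc not above 5 in any. The part of these cells in the differences was not tested.

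**Figure D4:**
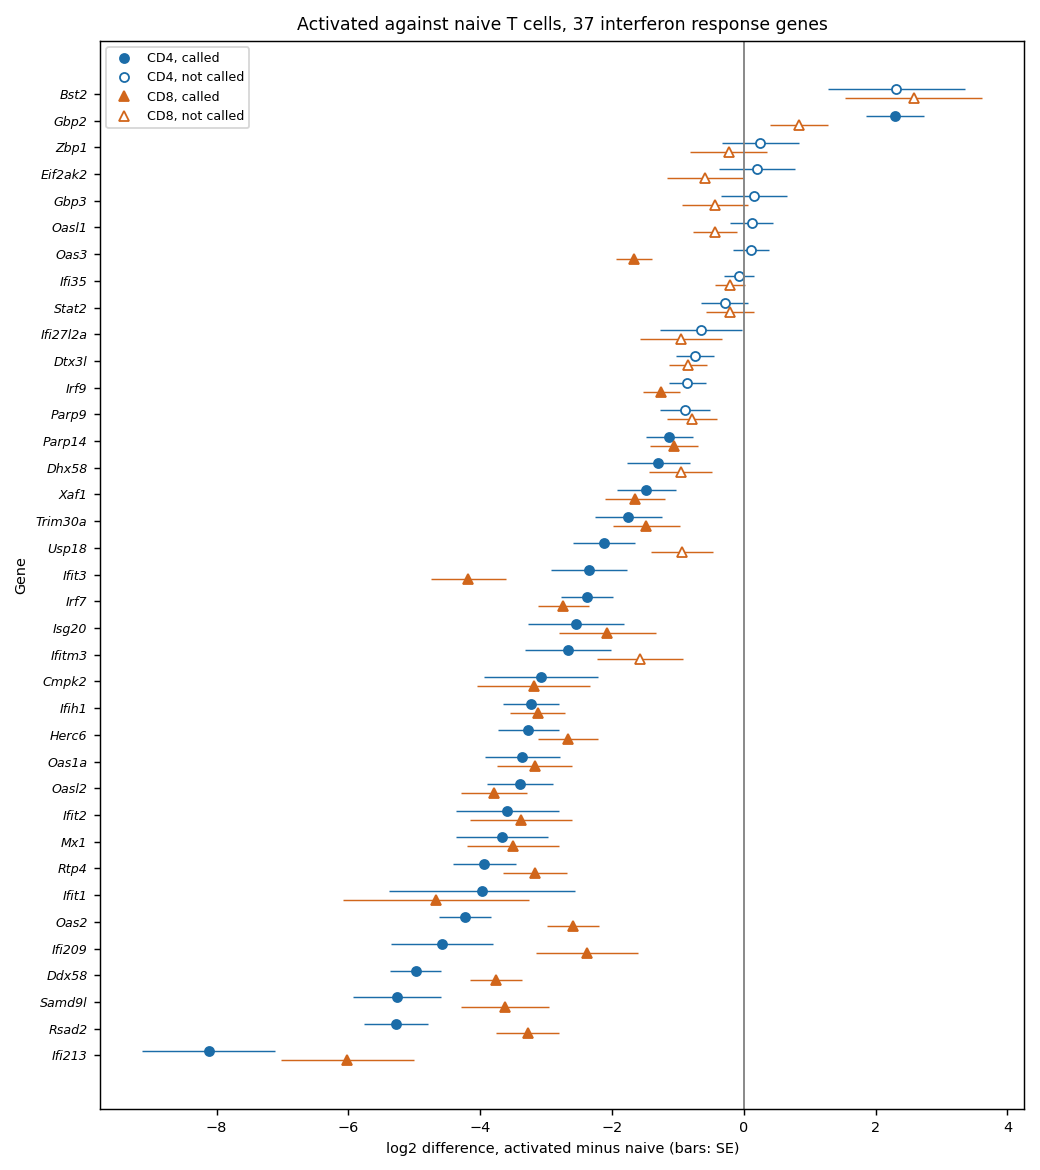
Log2 difference of activated minus naive T cells (horizontal axis) for each of the 37 members (rows), with circles for CD4 and triangles for CD8 T cells, bars for 1 SE, and filled symbols for called differences. Of the filled symbols, 24 in CD4 and 23 in CD8 lie left of 0, and Gbp2 in CD4 T cells is the one on the right.

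LT-HSC had lower levels of most members than the mean of the other 9 types. Of the 37 members 21 were lower and 3 higher, where 21.5% of all genes were lower and 18.4% higher, and the median log2 difference was -1.34 for members and -0.20 for all genes. Ifi209 (-8.61 ± 0.58, adjusted p = 5.20e-08), Usp18 (-5.63 ± 0.35), Ifi27l2a (-5.43 ± 0.46), Ifit1 (-5.09 ± 1.05), Ifi213 (-3.40 ± 0.75) and Ifit2 (-3.16 ± 0.59) were lowest relative to the rest in the limma fit with Benjamini-Hochberg adjustment. The LT-HSC arrays of Ifi209, Usp18 and Ifit1 lay below 5, so the size of these differences is uncertain. All 3 Ifit genes fell, as did 3 of 4 signalling genes (Irf9, Irf7 and Usp18) and 2 of 5 Oas genes (Oas2 and Oas3). Oas3 had a mean of 3.06 in LT-HSC, near those of NK (2.85) and B cells (3.05), all below 5. The LT-HSC mean of Oas2 (6.42) lay above those of NK cells (3.27), activated CD4 (3.93) and activated CD8 T cells (5.82). LT-HSC were thus low in these 2 genes against the mean of the types, not against each type. Ifitm3 (4.18 ± 0.49, adjusted p = 1.06e-05), Gbp3 (1.54 ± 0.37) and Ifih1 (1.25 ± 0.31) were the members that rose. Bst2 (-1.34 ± 0.77, adjusted p = 0.158) and Isg20 (-1.34 ± 0.55, adjusted p = 0.0527) did not pass. Gbp3 was not called without the first LT-HSC array (1.27), and Ifih1 (0.62) was not called with activated T cells left out of the mean. Isg20 was called lower in 11 of 33 alternatives, and Bst2 without the first (-1.62) or the second naive CD4 array (-1.06).

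Nucleated erythrocytes divided the members. Against the mean of the other 9 types, 13 members were higher and 11 lower, where 18.5% of all genes were higher and 36.7% lower, and the median log2 difference was 0.39 for members and -0.54 for all genes. Isg20 (7.11 ± 0.55, adjusted p = 9.01e-08, 138-fold), Rsad2 (5.95 ± 0.36), Oas3 (4.07 ± 0.20), Cmpk2 (3.88 ± 0.64), Ifit1 (3.88 ± 1.05) and Oasl2 (mean 10.71, SE of the difference 0.37, adjusted p = 9.14e-06) rose most, and Ifih1, Eif2ak2, Irf7, Usp18, Oas1a, Ifitm3 and Herc6 rose with them. Gbp2 (-6.06 ± 0.33, adjusted p = 2.93e-09), Ifi213 (-5.20 ± 0.75), Ifi27l2a (-3.96 ± 0.46), Gbp3 (-3.72 ± 0.37), Zbp1 (-3.15 ± 0.43) and Mx1 (-2.51 ± 0.52) fell most, all by limma and Benjamini-Hochberg. Both erythrocyte arrays of Ifi213, Zbp1 and Mx1 lay below 5, so the size of these falls is uncertain. Irf9 (0.93 ± 0.21, adjusted p = 0.0015) missed the 2-fold minimum and Ifit2 (-0.83 ± 0.59, adjusted p = 0.221) the p threshold, though Irf9 was called without the first erythrocyte array (1.03) and Ifit2 without the second activated CD8 array (-1.04). For Isg20, Rsad2 and Oas3 both erythrocyte arrays lay above every other array. Markers of other cells stood in these arrays. Of 6 granulocyte markers, 5 exceeded 5 (mean level 9.13 to 10.44, against 13.85 to 14.00 in granulocytes), with Cxcr2 not above 5. Of 6 macrophage markers, 4 did (mean level 5.95 to 7.40), with C1qa and C1qc not above 5. Of 4 platelet markers, 3 did (mean level 5.97 to 6.11), with Itga2b not above 5. Of 4 monocyte markers, 3 did (mean level 5.49 to 5.61), with Cd14 not above 5. Of these 3, Ccr2 (5.11 and 5.10) and Cx3cr1 (5.17 and 5.28) read close to 5 in most other types too. Csf1r read 9.98 and 10.38, against 9.91 and 8.97 in B cells and 13.95 and 13.71 in monocytes. The part of other cells in the differences was not tested. Of the 13 members called higher, 7 read higher in both erythrocyte arrays than in both granulocyte arrays (Herc6, Ifih1, Ifit1, Isg20, Oas3, Rsad2 and Usp18), 4 read lower (Cmpk2, Ifitm3, Oas1a and Oasl2), and the arrays of Eif2ak2 and Irf7 overlapped. The 13 were picked by their call in erythrocytes, and no share over all genes is given here, so these counts are a description.

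Monocytes had higher levels of most members than the mean of the other 9 types. Of the 37 members 21 were higher and 1 lower, where 18% of all genes were higher and 34.4% lower, and the median log2 difference was 1.65 for members and -0.49 for all genes. All 5 Oas genes rose, with Oasl2 (6.28 ± 0.37, adjusted p = 1.18e-08, 77.5-fold) and Oas2 (5.10 ± 0.29) ahead, and so did 7 of 9 antiviral effectors, among them Ifitm3 (4.98 ± 0.49), Rsad2 (4.64 ± 0.36) and Rtp4 (3.63 ± 0.36). Ifit1 (4.00 ± 1.05, adjusted p = 0.00432 by limma and Benjamini-Hochberg) and Irf7 (2.68 ± 0.29) rose as well. Bst2 was the lower member (1.71 against a mean of 3.71, both below 5, SE 0.77, adjusted p = 0.0355), and it was not called without the first (-2.03) or the second monocyte array (-1.96) or with activated T cells left out of the mean (-0.98). Ifi209 (-1.06 ± 0.58, adjusted p = 0.121) and Dhx58 (0.69 ± 0.36, adjusted p = 0.105) did not pass, although Ifi209 was called lower without the second monocyte array (-2.17). Ifit1 (4.00) was not called when arrays were weighted. The first monocyte array left out gave 0 members lower.

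**Figure D5:**
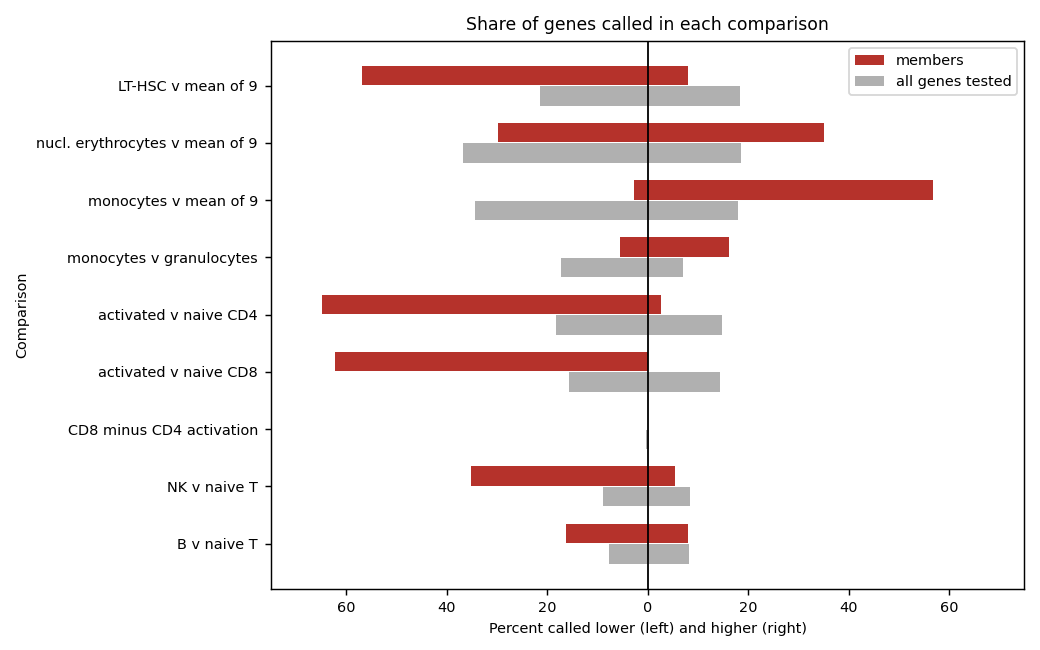
Percent of the 37 members (red) and of all 9810 genes tested (grey) called lower (left of 0) and higher (right of 0) in each of 9 comparisons (rows). Members exceed the grey bar on the low side in activated T cells (64.9% and 62.2%), LT-HSC (56.8%), NK cells (35.1%) and B cells (16.2%), and on the high side in monocytes (56.8% against the rest and 16.2% against granulocytes) and nucleated erythrocytes (35.1%).

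Monocytes and granulocytes are the 2 myeloid types. Monocytes were higher in 6 and lower in 2 of the 37, where 6.98% of all genes were higher and 17.3% lower, and 7 were higher and 0 lower after quantile normalization. The 2 monocyte arrays lay above both granulocyte arrays for 20 members and below them for 5. The share of all genes separated in this way is not given here, so these counts are a description. The median log2 difference was 0.60 for members and -0.13 for all genes. Gbp2 (2.52 ± 0.44, adjusted p = 9.08e-04), Oasl1 (1.90 ± 0.33), Oasl2 (1.79 ± 0.50), Herc6 (1.47 ± 0.46), Oas2 (1.38 ± 0.39) and Irf7 (1.37 ± 0.39) were higher in monocytes by limma and Benjamini-Hochberg. Herc6 was not called with the mean of its probe sets (0.78) or the one of highest variance (1.06). Dhx58 (-1.43 ± 0.48, adjusted p = 0.0421) and Oas3 (-1.31 ± 0.27, adjusted p = 0.00302) were higher in granulocytes. Ifit1 (1.89 ± 1.41, adjusted p = 0.373) and Ifi213 (1.71 ± 1.01, adjusted p = 0.247) did not pass. With 1 granulocyte array left out, 3 members were higher, and without the second one 0 were lower, with Oas3 at -0.89 and Dhx58 at -0.88. Without the second monocyte array Oasl2 (1.46) and Oas2 (1.14) were not called, and without the first Herc6 (1.06) and Irf7 (0.95) were not. Leaving out either activated CD8 array, which changes only the shared spread, gave 10 members higher, Ifi213 (1.71) among them. The call of Dhx58 was lost in 22 of 31 alternatives, and 1 member was lower with any 1 array left out of LT-HSC, naive T cells, activated CD8 T cells or B cells, or with the first monocyte array left out. Of 6 granulocyte markers, 5 exceeded 5 in both monocyte arrays (mean level 9.11 to 9.90) and Camp in 1 of them, and their part in the differences was not tested. The 5 prime Gapdh signal was 4.08 and 6.00 in monocytes and 8.26 and 8.23 in granulocytes, and its part was not tested either.

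NK cells had lower levels of many members than naive T cells. Against the mean of naive CD4 and CD8 T cells, 13 members were lower and 2 higher, where 8.95% of all genes were lower and 8.35% higher, and the median log2 difference was -0.48 for members and -0.06 for all genes. Ifi27l2a (-7.34 ± 0.54, adjusted p = 3.01e-07), Ifit1 (-5.26 ± 1.22), Oas2 (-5.02 ± 0.34), Isg20 (-4.81 ± 0.64), Bst2 (-3.10 ± 0.90) and Oasl2 (-3.08 ± 0.43) fell most by limma and Benjamini-Hochberg. Eif2ak2 (1.90 ± 0.49, adjusted p = 0.0134) and Gbp3 (1.36 ± 0.43, adjusted p = 0.0407) rose, but Eif2ak2 was not called with the mean of its probe sets (0.47). In 5 of the 15 called members (Bst2, Isg20, Oas2, Oas3 and Oasl2) neither NK array exceeded 5, so the size of the fall is uncertain. Of the members called, Oas3 exceeded 5 in 1 of the arrays compared, the first naive CD8 array. Ifitm3 (-1.31 ± 0.57, adjusted p = 0.129) and Rtp4 (-1.15 ± 0.41, adjusted p = 0.0664) did not pass. Without the second NK array 7 members were lower, Ifit1 (-3.70) no longer among them, and without either NK array 0 were higher. Without the second naive CD4 or the second naive CD8 array 1 was higher, Gbp3 (1.22 and 1.18) being lost. Bst2 was not called without the first NK (-3.05), the second NK (-3.15) or the second naive CD8 array (-2.76). Ifitm3 was called without the first NK (-2.49) or the first naive CD8 array (-1.76), and Rtp4 (-1.15) without either activated CD8 array.

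B cells differed less from naive T cells. Of the 37 members 6 were lower and 3 higher, where 7.77% of all genes were lower and 8.27% higher, and the median log2 difference was -0.19 for members and -0.03 for all genes. The lower members were Bst2 (-3.07 ± 0.90), Ifih1 (-2.90 ± 0.36, adjusted p = 4.65e-05), Herc6 (-1.82 ± 0.40), Gbp2 (-1.62 ± 0.38), Usp18 (-1.41 ± 0.41) and Oas3 (-1.03 ± 0.24), by limma and Benjamini-Hochberg. Eif2ak2 (1.77 ± 0.49), Gbp3 (1.67 ± 0.43) and Oasl1 (1.06 ± 0.29) were higher. With the mean of its probe sets Eif2ak2 (0.33) was not called, and a second probe set of it was lowest in B cells. Herc6 was not called with that mean (-0.75) or with the probe set of highest variance (-0.93). The call of Oas3 lies near background, since the first naive CD8 array was the 1 array above 5 among those compared. For Bst2 neither B cell array exceeded 5, so the size of its difference is uncertain. Ifit1 (-3.73 ± 1.22, adjusted p = 0.0503) and Ifit2 (-1.63 ± 0.68, adjusted p = 0.126) did not pass. Without the first B cell array Ifih1 was the 1 member still called lower, and without the second the 3 were Ifih1, Herc6 and Gbp2. Without the second B cell or the second naive CD8 array 0 were higher, with Eif2ak2 at 1.34 and 1.47, Gbp3 at 1.33 and 1.49 and Oasl1 at 1.13 and 0.84. Bst2 was not called without the second naive CD8 array (-2.74), Usp18 without the second naive CD4 or the first naive CD8 array (-1.18 each), and Oas3 without the first naive CD4 (-0.98) or the first naive CD8 array (-0.91). Ifit1 (-3.73) was called in 13 of 33 alternatives, and Ifit2 (-1.63) without either activated CD8 array. The NK and B cell comparisons share the naive arrays with each other and with the activation comparisons.

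Genes of the pathway outside the members were read from a list of 61, of which 56 had a probe set of their own and 48 were tested. Among the genes not tested were Ifnb1, Ifna4 and Socs1, and Isg15 had no probe set of its own. In activated CD4 T cells 15 of the 48 were lower and 2 higher, and in activated CD8 T cells 18 were lower and 3 higher. The shares were 31.2% and 4.17% in CD4 T cells, against 18.2% and 14.9% of all genes, and 37.5% and 6.25% in CD8 T cells, against 15.7% and 14.4%. Ifit1bl1, a relative of Ifit1, fell in both (-6.19 ± 0.36 and -6.28 ± 0.36), and Irf4, a factor of lymphocyte activation, rose in both (7.27 ± 0.83 and 7.76 ± 0.83). Irf8 also rose (1.76 ± 0.66 and 1.88 ± 0.66), and the ligand Ifng rose in CD8 T cells (5.16 ± 0.93). The double-stranded RNA receptor Tlr3 was the 1 gene of the 48 whose activation difference differed between CD8 and CD4 T cells (-5.28 ± 0.37, adjusted p = 7.39e-06 by limma), with means of 8.62 in naive CD8, 3.26 in activated CD8, 3.47 in activated CD4 and 3.54 in naive CD4 T cells.

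LT-HSC were lower in 18 (37.5%, against 21.5% of all genes) and higher in 7 (14.6%, against 18.4%), with Ifitm1 (6.71 ± 0.55) and Ifitm2 (4.71 ± 0.55) rising beside the member Ifitm3. Monocytes were higher in 17 (35.4%, against 18%) and lower in 10 (20.8%, against 34.4%), again with Ifitm2 (8.15 ± 0.55) and Ifitm1 (7.40 ± 0.55) on top, followed by the Ifi200 family gene Ifi204 (6.66 ± 0.15). Nucleated erythrocytes were lower in 26 (54.2%, against 36.7%) and higher in 3 (6.25%, against 18.5%), with Socs3, an inhibitor of cytokine signalling (-8.33 ± 0.37), and Sting1, the adaptor of DNA sensing (-7.46 ± 0.21), lowest. The erythrocyte means of Socs3 (3.75) and Sting1 (3.67) lay below 5, so the size of these differences is uncertain. Monocytes exceeded granulocytes in 9 of the 48 (18.8%, against 6.98%) and fell below them in 1 (2.08%, against 17.3%). NK cells were higher than naive T cells in 5 (10.4%, against 8.35%) and lower in 6 (12.5%, against 8.95%). B cells were higher in 10 (20.8%, against 8.27%) and lower in 6 (12.5%, against 7.77%). The receptor genes stayed above 5 in most types, with Ifnar2 at 9.15 to 11.88 and Ifnar1 at 4.64 in activated CD4 T cells and 5.89 to 7.18 elsewhere.

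Calls were set beside the promoter letters without a test. Of the members with a window, 10 of 18 called lower in activated CD4 T cells held the ISRE core, as did 5 of 9 not called and the 1 called higher. In monocytes 11 of 17 called higher held it, and 4 of 10 not called. In LT-HSC 5 of 12 called lower held it, 8 of 13 not called and all 3 called higher, namely Ifitm3, Gbp3 and Ifih1.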

How the data were processed

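The deposited values are log2 expression values that the authors made with GCRMA, per the submitters' processing notes. Neither its version nor whether the 20 arrays were run jointly is stated in the sources used here. GCRMA normalizes between arrays, so a shift of all genes is not seen, and values below about log2 5 lie near background, where differences are unreliable. The number of arrays limits the precision. Names of probe sets come from the platform annotation (34945 with 1 symbol, 932 with several, 9160 not listed), with symbols updated through 34741 Entrez matches. The probe set with the highest mean stood for a gene. limma 3.58.1 (lmFit, eBayes) in R 4.3.3 fitted 1 mean per cell type to 20 arrays, with 10 residual degrees of freedom, all tests 2-sided, and was tested on simulated data.

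Members and lists were chosen with earlier results of these data known. By the rule for names, values in every array are given for up to 2 members per role group and for Irf7, Stat2 and Irf9. Each comparison names up to 6 called differences per direction and 2 not called. Ifitm3, Bst2 and other members were added after their values were seen. Arrays of equal number did not deviate together (correlations of -0.26 to 0.21 over 45 pairs of types), so no block was used. Alternatives covered filters, probe set choice, scaling, array weights, the samples fitted, the block and each array left out.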

Additional observations from a re-analysis of the deposited data

How the results depend on the processing

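No result reversed under any alternative run. Of 84 named differences, 45 kept call and direction in every setting, 25 lost a call in at least 1 and 14 gained one. The replicate block left 1 member lower in monocytes against granulocytes and 1 higher in NK cells, and moved no other count by over 1.5 times. In monocytes against the rest, 0 members were lower without the filter, with array weights and without activated T cells in the mean. In monocytes against granulocytes, 1 was lower without or with a stricter filter (log2 7), with the mean of probe sets, with array weights and without either number of naive arrays, 0 with quantile normalization, and with only the groups compared 1 was higher and 0 lower; array weights left 2 higher. In NK cells 1 was higher without the filter and with the mean of probe sets, and 0 without the second naive arrays. In B cells 5 were higher with the highest-variance probe set or only the groups compared and 0 without the second naive arrays, and 3 were lower without the first. In activated CD8 T cells 1 was higher with array weights, only the groups compared or either number of naive arrays left out, and in activated CD4 T cells 2 without the second naive arrays. The CD8 minus CD4 difference gave 1 lower with the mean of probe sets and with array weights. The cause was not tested. Quantile normalization shifted the median of all genes by 0.15 in the erythrocyte and monocyte comparisons.

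With 1 array left out in turn, the count of members higher and lower ranged from 2 to 3 and 17 to 23 in LT-HSC, 12 to 13 and 9 to 12 in nucleated erythrocytes, 19 to 21 and 0 to 1 in monocytes, and 3 to 10 and 0 to 2 for monocytes against granulocytes. It ranged from 1 to 2 and 15 to 24 in activated CD4, 0 to 1 and 15 to 24 in activated CD8, 0 to 1 in each direction for their difference, 0 to 2 and 7 to 13 in NK cells and 0 to 4 and 1 to 8 in B cells. The F test gave 36 throughout.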
